A study of Mus musculus with 6 samples.

Results

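The cardiac myosin chains are the motor proteins of the thick filament and the small chains that sit on their necks. They were examined here as 8 genes, the heavy chains Myh6, Myh7 and Myh7b, the light chains Myl2, Myl3, Myl4 and Myl7, and the kinase Mylk3. Their probe sets were found by gene symbol in the array's probe table, a rule with no threshold on a measured value, although the set of genes was drawn up with earlier results of these data known. Their Entrez Gene identifiers are 17888, 140781 and 668940 for Myh6, Myh7 and Myh7b, 17906, 17897, 17896 and 17898 for Myl2, Myl3, Myl4 and Myl7, and 213435 for Mylk3. They are 8 of 18193 named genes and carry 12 of 45101 probe sets. The arrays held left ventricle RNA from 6 male C57BL/6 mice, an inbred strain, aged 6 months, all kept on a high fat diet over 16 weeks. Placebo was given to 3 of them and the other 3 were treated with Lira, a name the labels leave unexplained. The diet, the strain and the sex were common to both groups, so no lean animals and no other sex were compared. Each mouse gave 1 array, and the design text mentions 10 mice, of which the other mice were not analysed here. The labels conflict on the source, since the extraction protocol mentions blood and both the sample descriptions and the design give the left ventricle.

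In the sarcomere, a pair of heavy chains wind together into a rod, and each of their heads binds actin, splits ATP and pulls. Each head carries an essential and a regulatory light chain. Adult mouse ventricle makes mainly the fast alpha heavy chain, encoded by Myh6, with the ventricular light chains Myl2 and Myl3. The slow beta heavy chain, encoded by Myh7, is the main form in the fetal mouse ventricle and returns in the overloaded heart. Myl4 and Myl7 are the atrial essential and regulatory chains. Mylk3 encodes the cardiac kinase that phosphorylates the Myl2 protein.

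The heavy chain genes also carry microRNAs in their introns, and these sequences are shown because they tie the 3 heavy chain genes together. They are given 5′ to 3′ from RefSeq, build GRCm38.p6, with the seed, bases 2 to 8, in capitals. miR-208a-3p lies within Myh6 at chr14:54949072-54949093 on the minus strand. miR-208b-3p lies within Myh7 at chr14:54975710-54975731 on the minus strand. miR-499-5p lies within Myh7b at chr2:155622893-155622913 on the plus strand. The microRNAs themselves were not analysed here.
miR-208a-3p: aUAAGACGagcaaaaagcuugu
miR-208b-3p: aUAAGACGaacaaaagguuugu
miR-499-5p: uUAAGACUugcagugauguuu
The seeds of miR-208a-3p and miR-208b-3p were identical, and the 2 microRNAs shared 19 of 22 bases. The seed of miR-499-5p matched theirs at 6 of 7 bases. Myh6 and Myh7 lie next to each other on chromosome 14 on the same strand, with 0 protein-coding genes between them in the RefSeq annotation.

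The start regions of this neighbouring pair are shown because the ratio of the pair is a main measure here. Each runs from 250 bases before to 50 bases after an annotated start, is read 5′ to 3′ and comes from RefSeq, build GRCm38.p6. The Myh6 window is chr14:54966558-54966857, minus strand, and the Myh7 window is chr14:54994577-54994876, minus strand. Capitals mark the MCAT core, which TEAD factors bind, searched as CATTCC on both strands and present here on the opposite strand as GGAATG.
Myh6: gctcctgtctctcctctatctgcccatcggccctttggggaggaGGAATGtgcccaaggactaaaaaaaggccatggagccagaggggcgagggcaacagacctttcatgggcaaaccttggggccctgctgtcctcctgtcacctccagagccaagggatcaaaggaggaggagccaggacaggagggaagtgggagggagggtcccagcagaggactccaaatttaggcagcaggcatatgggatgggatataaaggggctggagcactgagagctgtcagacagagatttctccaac
Myh7: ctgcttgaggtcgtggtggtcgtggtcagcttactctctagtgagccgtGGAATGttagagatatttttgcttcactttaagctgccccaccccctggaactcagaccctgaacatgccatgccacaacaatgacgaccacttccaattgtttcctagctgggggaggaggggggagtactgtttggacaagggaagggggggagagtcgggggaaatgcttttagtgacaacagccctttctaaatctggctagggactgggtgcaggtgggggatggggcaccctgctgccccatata
The match began 206 bases before the start in Myh6 and 201 bases before it in Myh7. A start annotated 77 bases further downstream for Myh7 has a window without this match. Of the 2 Myh7 windows the one with the match is shown. Its distance depends on the start chosen, so no position shared with Myh6 is read from it. All 8 members had an entry, in 11 windows. The MCAT core was found in 5 of these 11 windows, and in 14.7% of all 32851 windows of 300 bases. The 5 windows belong to Myh6, Myh7, Myl3, Myl7 and Mylk3. The GATA site GATAA was found in 5 of the 11 windows, and in 25.4% of all windows. These belong to Myh7b, Myl2, Myl3, Myl7 and Mylk3. The nuclear receptor site AGGTCA was found in 2 of the 11 windows, of Myh7b and Myl2, and in 16.3% of all windows. None of these 3 motifs overlaps another in the members' windows. A match of letters is a description and not a bound site.

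Signals are given in the linear, arbitrary units that the authors deposited, with a 2% trimmed mean of 150 on each array. The sensitivity of probe sets differs, so the signals of different probe sets are not compared as amounts of RNA. The median signal per array was between 28.6 and 39.6, and the arrays correlated with each other at Pearson r from 0.973 to 0.981 over 12736 genes on the log2 scale. Arrays carry no read depth, and their number, 3 in each group, limits the precision. Nothing in the labels names a batch, and nothing says that mice of the same replicate number belong together. In bulk tissue, fewer cells of a type and less RNA per cell cannot be told apart.

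Myh7 was the member that differed most between the groups among those tested, and it was lower with Lira. Its signal was 1194 on placebo replicate 1, 2009 on placebo replicate 2 and 1625 on placebo replicate 3. It was 986 on Lira replicate 1, 1108 on Lira replicate 2 and 1029 on Lira replicate 3. All 3 Lira arrays were thus below all 3 placebo arrays, and placebo replicate 1 came closest to the Lira group. The means were 1610 ± 408 with placebo and 1041 ± 62.3 with Lira (SD, n = 3 per group), a 1.55-fold lower mean. The placebo values also lay further apart, with a highest value 1.68 times the lowest, against 1.12 times with Lira. On the scale log2(signal + 16), on which all log2 differences of signals here are given, the difference was -0.59 ± 0.15 (SE), with a 95% interval from -0.91 to -0.27. The unadjusted p was 0.00146 in limma and the Benjamini-Hochberg adjusted p over 12736 genes was 0.44, so Myh7 did not pass. Myh7 stood at rank 42 of all tested genes by p. Without placebo replicate 1 the difference was -0.79 and the adjusted p in limma was 0.037, which passes. Its adjusted p in limma lay between 0.18 and 0.90 under the other alternatives.

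**Figure D1:**
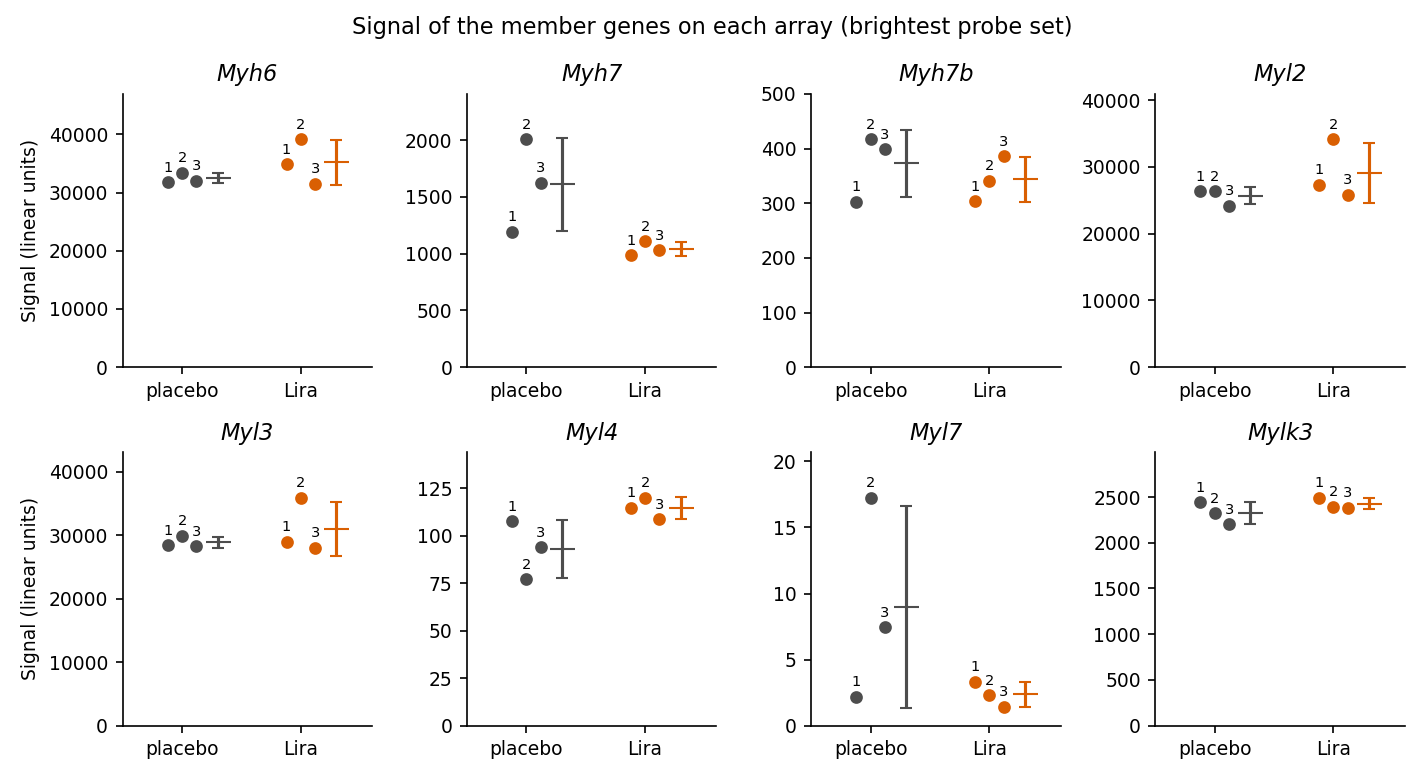
Linear signal (vertical axis, arbitrary units, from 0) of the brightest probe set of each member on the 3 placebo and 3 Lira arrays; points are arrays with their replicate number, and the bars beside them are the mean ± SD. The 3 Lira points of Myh7, from 986 to 1108, lie below the lowest placebo point of 1194, while the groups of Myh6, Myl2, Myl3, Myh7b and Mylk3 overlap.

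Myh6 showed no such separation. Its brightest probe set measured 31826, 33442 and 32073 on placebo replicates 1, 2 and 3, and 34927, 39205 and 31552 on Lira replicates 1, 2 and 3. Lira replicates 1 and 2 were above every placebo array and Lira replicate 3 was below every one of them. The means were 32447 ± 870 and 35228 ± 3835 (SD, n = 3 per group). The log2 difference was 0.11 ± 0.09 (SE) with a 95% interval from -0.07 to 0.30 and an adjusted p of 0.89 in limma. A further Myh6 probe set was much dimmer, at 226, 310 and 186 with placebo and 285, 283 and 277 with Lira. Its log2 difference was 0.24 ± 0.16 (SE), also with overlapping groups, and its Lira values were nearly the same on all 3 arrays.

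Myh7b encodes a further heavy chain related to Myh7. It measured 303, 417 and 398 on placebo replicates 1, 2 and 3 and 304, 341 and 386 on Lira replicates 1, 2 and 3. Every Lira value lay within the range of the placebo values. The log2 difference was -0.11 ± 0.14 (SE), with a 95% interval from -0.41 to 0.20 (adjusted p = 0.95, limma). As for Myh7, placebo replicate 1 gave the lowest placebo value.

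The probe table gives 2 more probe sets to Myh6 and Myh7 together, and they were kept out of the tests. The brighter of them measured 25783, 26936 and 24885 with placebo and 28313, 34341 and 25609 with Lira. Its values were nearer to those of Myh6 than to those of Myh7 across the 6 arrays. After each gene was centred on its own mean, the root mean square difference in log2 value was 0.05 to Myh6 and 0.44 to Myh7. It was also 0.03 to Myl2 and 0.05 to Myl3. The dimmer one measured 176, 236 and 153 with placebo and 239, 208 and 209 with Lira. It too was nearer to Myh6, at 0.20, than to Myh7, at 0.46, and it was nearest to Mylk3, at 0.18. Since other members lay as near as Myh6 or nearer, these distances do not tell which transcript a joint probe set measures. How much of the signal on the Myh7 probe set comes from the closely related Myh6 transcript was not tested.

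The Myh7 signal as a percentage of the Myh6 signal was lower on every Lira array than on any placebo array. It was 3.75%, 6.01% and 5.07% on placebo replicates 1, 2 and 3, and 2.82%, 2.83% and 3.26% on Lira replicates 1, 2 and 3. The means were 4.94% ± 1.13 and 2.97% ± 0.25 (SD, n = 3 per group). The level of this percentage depends on the brightness of the probes and is not a share of the protein or of the RNA. Only its change between arrays can be read, and any factor that scales a whole array cancels in it. A shift that differs between bright and less bright probe sets does not cancel. The log2 ratio was -4.37 ± 0.34 with placebo and -5.08 ± 0.12 with Lira (SD, n = 3 per group). The difference was -0.71 ± 0.21 (SE), or a 1.64-fold lower ratio. An exact two-sided permutation test over the 6 arrays gave p = 0.1, which is the smallest p that 3 against 3 allows, so this design cannot reach 0.05. The ratio rests on the same Myh7 values as the difference described above and is not a separate measurement of them. With 16 added to both signals the difference was -0.70, and after quantile normalization it was -0.60. With the dimmer Myh6 probe set as denominator it was -0.86, and with the brighter of the 2 joint probe sets it was -0.77, an alternative added after the data had been seen. It ranged from -0.90 without placebo replicate 1 to -0.56 without placebo replicate 2.

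**Figure D2:**
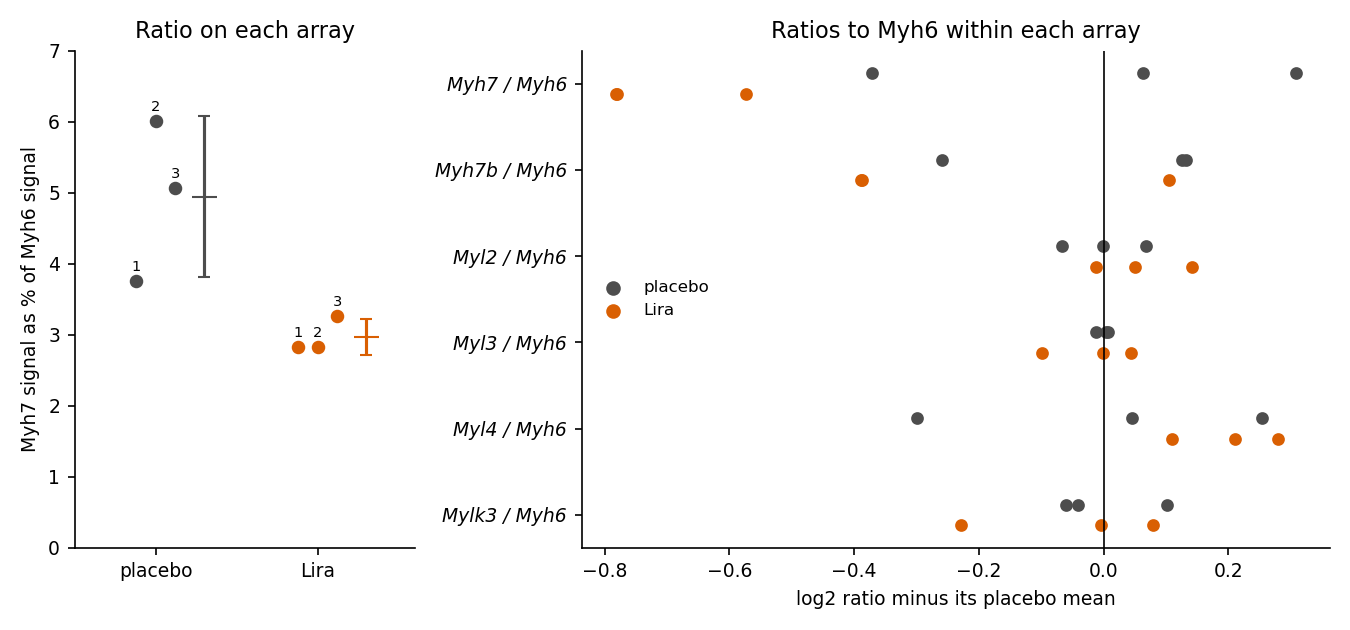
Left, Myh7 signal as a percentage of Myh6 signal on each array (points with replicate numbers, bars are mean ± SD of 3 arrays). Right, log2 ratio of 6 members to Myh6 on each array, minus the placebo mean of that ratio. The 3 Lira arrays lie between 2.82% and 3.26% and the placebo arrays between 3.75% and 6.01%, while for the other 5 members the groups overlap. Lira replicates 1 and 2, at 2.82% and 2.83%, coincide in the right panel.

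The ventricular light chains had their highest value on the same array as Myh6, Lira replicate 2. Myl2, the regulatory light chain of the ventricle, measured 26348, 26385 and 24171 on placebo replicates 1, 2 and 3 and 27337, 34146 and 25793 on Lira replicates 1, 2 and 3. Lira replicates 1 and 2 were above every placebo array, replicate 2 by far the more, while Lira replicate 3 lay inside the placebo range. The log2 difference was 0.17 ± 0.10 (SE), with a 95% interval from -0.04 to 0.39 (adjusted p = 0.87, limma). Myl3, the essential light chain of the ventricle, measured 28377, 29881 and 28272 with placebo and 28988, 35907 and 28039 with Lira on its brightest probe set. Here Lira replicate 2 alone exceeded every placebo array. The log2 difference was 0.09 ± 0.09 (SE), with a 95% interval from -0.11 to 0.30 (adjusted p = 0.93, limma). The 2 further Myl3 probe sets gave differences of 0.03 ± 0.10 and 0.02 ± 0.10 (SE). Without Lira replicate 2 all 3 Myl3 probe sets turned to the other sign, at -0.02, -0.09 and -0.08.

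The high values on Lira replicate 2 were common to the brightest probe sets of that array. Of the 50 probe sets with the highest mean signal, 49 were above the mean of the other Lira arrays on Lira replicate 2, by a median of 0.26 on the log2 scale. For Myh6, Myl2 and Myl3 the same excess was 0.24, 0.36 and 0.33, and for Myh7 it was 0.14. On Lira replicate 3 only 1 of the 50 was above the mean of the other Lira arrays, with a median of -0.18. The part of this in the differences of Myh6, Myl2 and Myl3 was not tested, and ratios within an array are free of a factor common to both genes. The log2 ratio of Myl2 to Myh6 was -0.34 ± 0.07 with placebo and -0.28 ± 0.08 with Lira (SD, n = 3 per group). That of Myl3 to Myh6 was -0.17 ± 0.01 and -0.19 ± 0.07. Both groups overlapped in both ratios, and the differences were 0.06 ± 0.06 and -0.02 ± 0.04 (SE). After quantile normalization the difference of Myh6 was 0 and it had rank 3 or 4 among the genes on every array.

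The light chain kinase Mylk3 varied least of the 8 genes. It measured 2446, 2326 and 2201 on placebo replicates 1, 2 and 3 and 2494, 2395 and 2385 on Lira replicates 1, 2 and 3. The groups overlapped, with means of 2324 ± 122 and 2425 ± 60.0 (SD, n = 3 per group). The log2 difference was 0.06 ± 0.08 (SE), with a 95% interval from -0.12 to 0.24 (adjusted p = 0.95, limma). The activity of the kinase was not measured.

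The atrial light chains gave dim signals in these ventricles. Myl4, the atrial essential light chain that the fetal ventricle also makes, measured 108, 77.1 and 93.9 on placebo replicates 1, 2 and 3 on its brighter probe set. It measured 115, 120 and 109 on Lira replicates 1, 2 and 3. The groups did not overlap, but only just, with 107.6 on placebo replicate 1 and 108.7 on Lira replicate 3. The log2 difference was 0.27 ± 0.17 (SE), with a 95% interval from -0.09 to 0.63 (adjusted p = 0.87, limma), and within the array the ratio to Myh6 overlapped between the groups. The other Myl4 probe set was under the filter on low values, at 7.76, 7.01 and 19.2 with placebo and 6.69, 7.42 and 24.3 with Lira. Myl7, the atrial regulatory light chain, was also under that filter and was not tested. Its single probe set measured 2.18, 17.3 and 7.46 with placebo and 3.34, 2.30 and 1.44 with Lira, below the median signal of the array in every case. Without detection calls such values cannot be told from background, and no change is read from them.

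Of the other atrial markers, 10 of 11 had a probe set and 7 were tested. Their summed signal was 3863 to 4317 with placebo and 2798 to 3657 with Lira, with Nppa, the gene of atrial natriuretic peptide, the largest part of it. Nppa measured 2831 ± 214 and 1797 ± 382 (SD, n = 3 per group), and its groups did not overlap. Its log2 difference was -0.67 (unadjusted p = 0.000208, adjusted p = 0.16, limma). Kcnj3, an atrial potassium channel subunit, measured 539 ± 26.5 and 615 ± 148 with overlapping groups. The atrial markers Sln and Bmp10 were dim, at 3.13 to 32.3 and 4.33 to 77.4 over the 6 arrays. Their part in the values of Myl4 was not tested. Of the 6 genes on the ventricular muscle list, 4 were higher and 2 lower with Lira. Named of them were Tnni3, cardiac troponin I, at 20773 ± 642 and 23046 ± 3179, and Hrc, a calcium-binding protein of the sarcoplasmic reticulum, at 8477 ± 692 and 8557 ± 767. Ankrd1, a stretch-responsive ankyrin repeat protein of cardiac muscle on the same list, measured 8992, 11036 and 8151 with placebo and 7078, 7786 and 6051 with Lira. Its groups did not overlap, and the log2 difference was -0.43 (unadjusted p = 0.0029, adjusted p = 0.54, limma), the only gene of this list at an unadjusted p under 0.05. Skeletal muscle markers summed to 288 to 354 with placebo and 216 to 295 with Lira over 11 genes, with Mybpc2 and Mylpf the brightest, and all 5 tested were lower, none with an unadjusted p under 0.05 in limma. Summed leukocyte markers were 2319 to 2520 and 2561 to 2935, with 6 of 6 tested higher and Csf1r and C1qa the brightest. Summed fibroblast markers were 10359 to 10678 and 10102 to 12264. At an unadjusted p under 0.05 in limma, 1 of the 7 was higher and 2 were lower with Lira. Of all genes 2.91% were higher and 3.12% lower. The brightest fibroblast markers were Dcn, at 6790 ± 101 and 7976 ± 703, and Col3a1, at 1597 ± 99.9 and 1135 ± 255, each with groups apart in opposite directions. Summed markers of endothelium (2749 to 3313 and 3044 to 3254), red cells (43.4 to 80.8 and 47.3 to 79.5) and fat cells (16025 to 17597 and 16296 to 18719) overlapped between the groups. Their brightest genes were Emcn and Kdr, Hba-a2 and Alas2, and Fabp4 and Cidec. Only 3 of 7 red cell genes and 4 of 6 fat cell genes had a probe set. The red cell genes were dim, with a highest value of 63.9 on any array. Fabp4, at 16881 ± 805 and 17331 ± 1226, was nearly all of the fat cell sum and the only 1 of its genes tested. Cidec, the next brightest, was dim, at 16.4 ± 3.50 and 12.6 ± 10.9. The fat cell sum is therefore not read as a measure of fat cells. The ventricular muscle list summed to 38477 to 41516 and 36868 to 45021. Tnni3, Ankrd1 and Hrc made up most of this sum, and it is not read as a measure of the chamber. The part of these other cell types in the values of the members was not tested.

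Over the members as a group, 7 of 8 passed the filter on low values and were tested. In limma 0 of the 7 passed an adjusted p of 0.05, and 0.0550% of all 12736 genes did. At an unadjusted p under 0.05 there was 1 of 7, Myh7, against 6.02% of all genes in either direction and 3.12% lower with Lira. Groups that did not overlap were seen in 1 member lower with Lira, Myh7, against 5.41% of all genes. They were seen in 1 member higher with Lira, Myl4, against 5.98% of all genes. Among the 7, the sign was positive for 5 and negative for 2, and their median was 0.09 on the log2 scale, beside 0.01 for all tested genes. Each probe set taken by itself gave 0 of 10 tested past the threshold in limma, against 0.00818% of 24462 probe sets. At an unadjusted p under 0.05 the Myh7 probe set was the only 1 of the 10, against 5.60% of all.

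**Figure D3:**
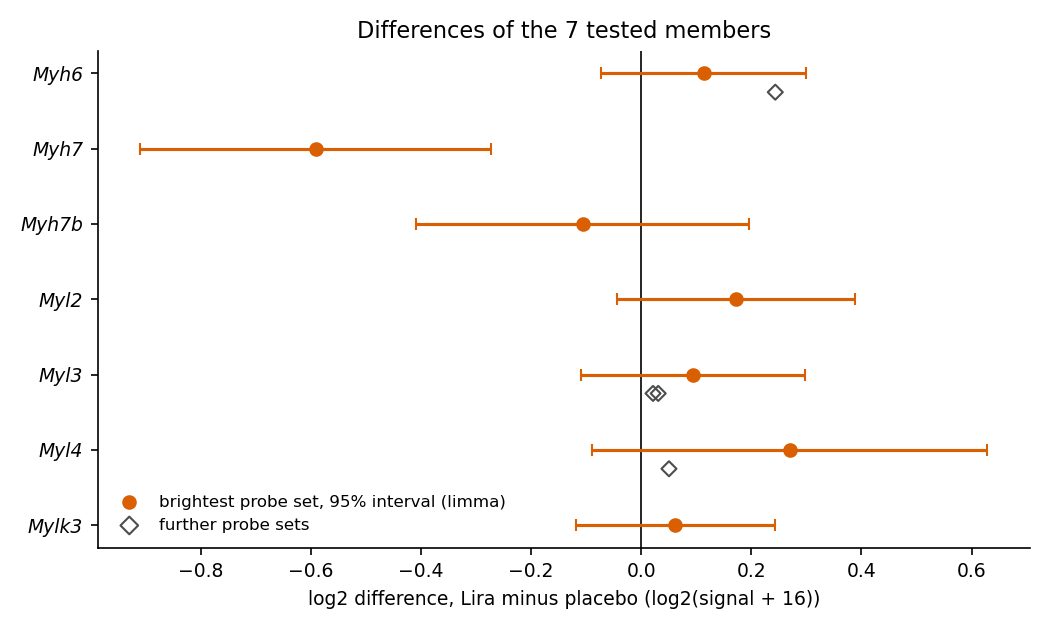
Log2 difference of Lira minus placebo for the 7 tested members (horizontal axis, from log2(signal + 16)), with the 95% interval of the limma fit over 6 arrays for the brightest probe set, and open diamonds for further probe sets of the same gene. The interval of Myh7, from -0.91 to -0.27, lies below 0, and those of the other 6 members include 0; the intervals are not adjusted for the number of genes.

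How alike the members behaved was described by the root mean square difference of their gene-centred log2 values over the 6 arrays, a distance that is 0 for identical profiles. It was smallest between Myh6 and Myl3, at 0.04, between Myl2 and Myl3, at 0.05, and between Myh6 and Myl2, at 0.07. Mylk3 stood at 0.11 from Myh6, about the spread of Myh6 around its own mean, also 0.11, so no shared profile is read from it. Myh7 stood apart from Myh6, Myl2 and Myl3, at 0.41, 0.45 and 0.40, and Myl4 was the farthest from it, at 0.55. The distance is not scaled, and the spread of Myh7 around its own mean, 0.37, enters these values. The small distance of 0.14 between Myh7 and Myl7 involves the dim Myl7 signal, and both were highest on placebo replicate 2. These arrays share their scaling, and a distance over 6 arrays is a description with no test.

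**Figure D4:**
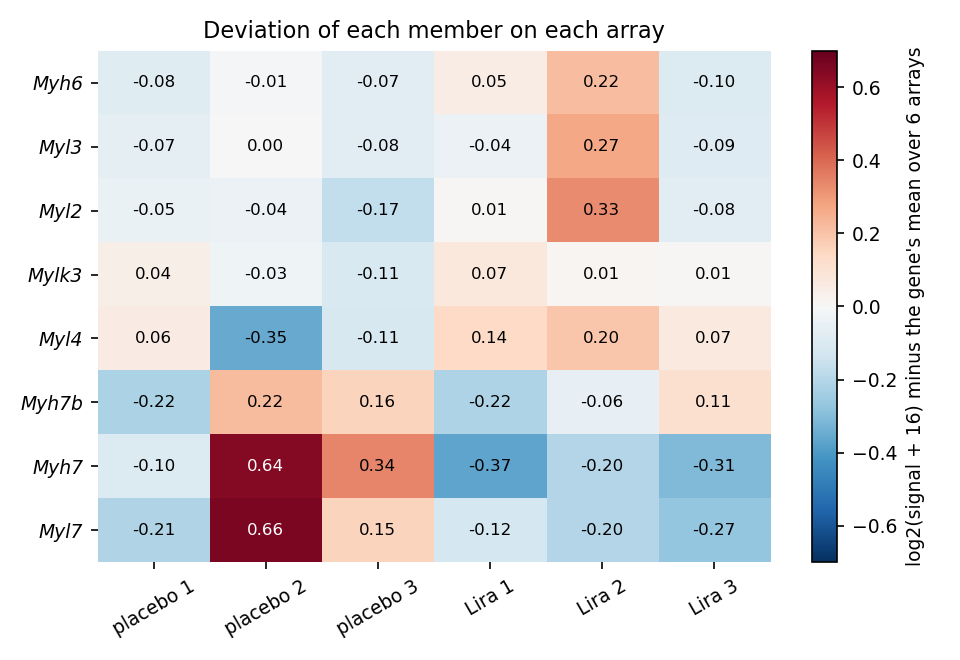
Deviation of each member on each array from its own mean over 6 arrays, on the log2(signal + 16) scale; columns are arrays, rows are genes, red is above and blue below the mean. Myh6, Myl2 and Myl3 share their highest value on Lira replicate 2, at 0.22, 0.33 and 0.27, while Myh7 and Myl7 share theirs on placebo replicate 2, at 0.64 and 0.66.

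Among 12729 tested genes outside the family, the 3 with profiles nearest to Myh7 were Spry4, C920021L13Rik and Rab11fip1, at distances of 0.08, 0.09 and 0.12. The median distance of all these genes was 0.42. Spry4, an inhibitor of receptor tyrosine kinase signalling, measured 72.0, 139 and 106 with placebo and 61.2, 64.1 and 71.9 with Lira. Its difference was -0.54 on the log2 scale (adjusted p = 0.75, limma). Rab11fip1, an effector of the recycling GTPase Rab11, measured 41.2, 64.8 and 58.8 with placebo and 29.4, 26.6 and 32.0 with Lira. All 3 were dim, and in each of them placebo replicate 2 was the highest array. They were picked by nearness to the Myh7 values, so this shape and their lower Lira values follow from the choice. The genes nearest to Myl7 were 2700049A03Rik, Evc and C920021L13Rik, at 0.06, 0.07 and 0.10, and they were dim as well.

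The other genes of the myosin system were read from 7 lists with 78 genes in all, of which 62 were tested. In limma 0 of the 62 passed over all genes, and at an unadjusted p under 0.05 there were 5 lower and 0 higher with Lira, against 3.12% lower and 2.91% higher of all genes. Their median log2 difference was 0.01, as was that of all genes. The lists were chosen with earlier results of these data known. The 5 lower genes were Myl1, Myl12a, Myom2, Hsp90aa1 and Kcna5, each on a different list.

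Of the other striated muscle myosin chains 5 of 11 were tested, 2 higher and 3 lower, with a median of -0.33. Myl1, the essential light chain of fast skeletal muscle, measured 1279, 1364 and 1556 on placebo replicates 1, 2 and 3 and 1218, 972 and 977 on Lira replicates 1, 2 and 3. All Lira values were below all placebo values, and the log2 difference was -0.40 (unadjusted p = 0.0032, adjusted p = 0.54, limma). The skeletal heavy chains Myh1, Myh2 and Myh4 were dim, with a highest value of 70.5 on any array for their brightest probe sets. Myl6b, an essential chain related to Myl3, measured 8.08, 27.8 and 36.1 with placebo and 39.3, 48.2 and 31.8 with Lira, with overlapping groups.

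Of the smooth muscle and non-muscle chains all 8 were tested, 6 higher and 2 lower, with a median of 0.08. Myl12a, a non-muscle regulatory light chain, measured 9391, 10953 and 12445 with placebo and 7533, 8949 and 7985 with Lira. The groups did not overlap, and its log2 difference was -0.42 (unadjusted p = 0.00156, adjusted p = 0.45, limma), with -0.33 on its other probe set. Myl12b, a close relative of it, measured 1124 ± 92.7 and 1197 ± 54.8 (SD, n = 3 per group) with overlapping groups. Myl9, the smooth muscle regulatory chain, measured 337 ± 16.0 and 405 ± 79.6. Summed smooth muscle markers were 2207 to 2416 with placebo and 2513 to 4631 with Lira. Acta2, smooth muscle actin and the brightest of them, measured 1122, 1074 and 1391 with placebo and 3377, 1579 and 1518 with Lira. Its groups did not overlap, and the log2 difference was 0.75 (unadjusted p = 0.0059, adjusted p = 0.59, limma). Smtn, the next brightest smooth muscle marker, measured 428 ± 58.9 and 398 ± 55.6 with overlapping groups. Their part in the Myl9 values was not tested.

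Of the thick filament and M-band partners 6 of 10 were tested, 1 higher and 5 lower, with a median of -0.12. Myom2, a myomesin that links thick filaments at the M-band, measured 10968, 11127 and 10932 with placebo and 7752, 9562 and 9803 with Lira. Placebo values were close together and all above the Lira values, with a log2 difference of -0.29 (unadjusted p = 0.0079, adjusted p = 0.64, limma). Its other 2 bright probe sets gave -0.57 and -0.45, and a dim one gave 0.16. Myom1 measured 6961 ± 178 and 6754 ± 244 with overlapping groups. Mybpc3, cardiac myosin-binding protein C, measured 12670 ± 344 and 11699 ± 858, and its groups did not overlap (adjusted p = 0.87, limma). Mybpc2, the fast skeletal form, measured 90.2 ± 15.9 and 69.2 ± 12.5.

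Of 10 light chain kinases and subunits or regulators of myosin phosphatase 9 were tested and all 9 log2 differences were above 0, with a median of 0.04 and 0 at an unadjusted p under 0.05 in limma. Ppp1r12a, the targeting subunit of the phosphatase, measured 475, 471 and 458 with placebo and 541, 522 and 492 with Lira, with groups apart and an adjusted p of 0.88 in limma. Mylk2, the skeletal muscle kinase, was dim at 26.1 ± 18.2 and 51.8 ± 19.3 (SD, n = 3 per group), with overlapping groups. Its log2 difference of 0.74 ± 0.35 (SE) was the largest in size among the 62 tested genes of the 7 lists (unadjusted p = 0.055, adjusted p = 0.83, limma). Of the myosin folding and turnover genes 9 of 10 were tested, 4 higher and 5 lower, with a median of -0.004. Hsp90aa1, a chaperone that assists myosin folding, measured 3048 ± 516 and 2292 ± 202 on its brightest probe set, with groups apart (adjusted p = 0.55, limma) and the other sign on 2 of its further 4 probe sets. Unc45b, the dedicated myosin chaperone of muscle, measured 2046 ± 83.6 and 2115 ± 99.7, and Smyd2, a methyltransferase, 1444 ± 103 and 1263 ± 135.

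**Figure D5:**
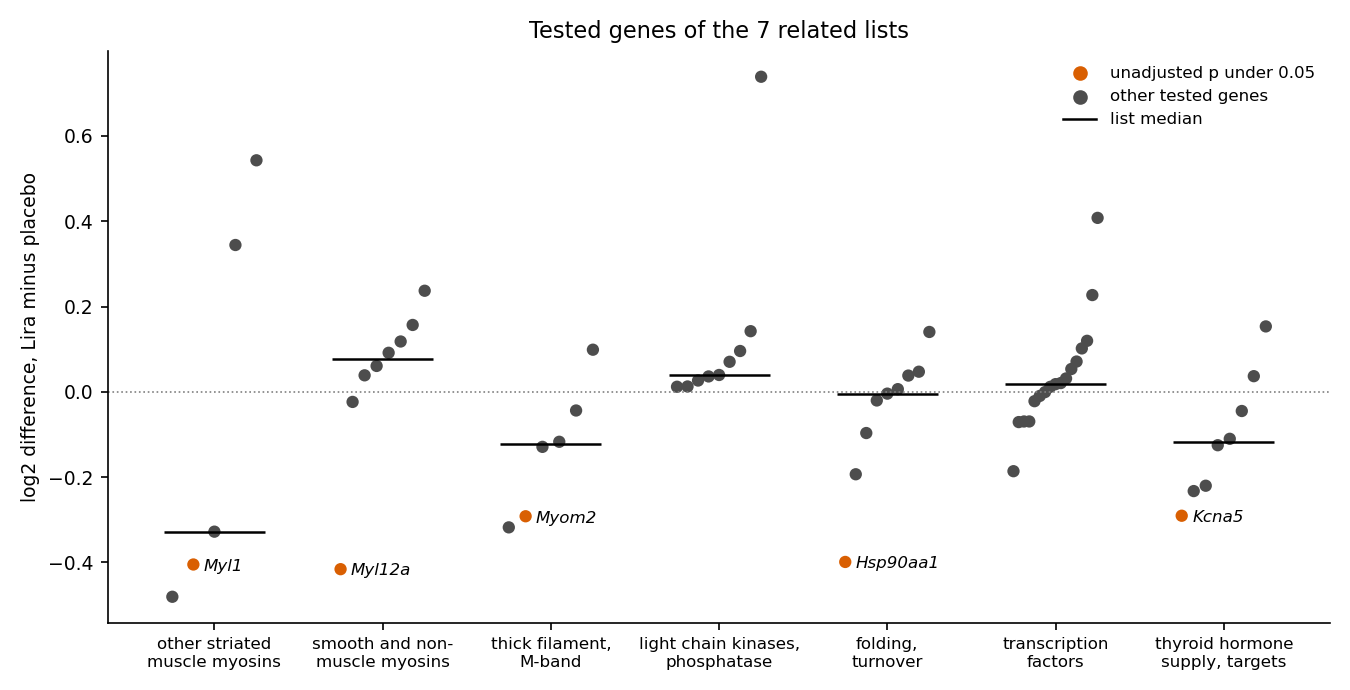
Log2 difference of Lira minus placebo for every tested gene of the 7 related lists (vertical axis, from log2(signal + 16)); each point is a gene, bars are list medians, and orange points have an unadjusted p under 0.05 in limma. The 5 orange points, Myl1, Myl12a, Myom2, Hsp90aa1 and Kcna5, all lie below 0.

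Transcription factors that act on the heavy chain genes gave 10 higher and 7 lower of 17 tested of 18, with a median of 0.02 and 0 at an unadjusted p under 0.05 in limma. The largest differences by p were Nfatc4, a calcineurin-dependent factor, at 62.3 ± 16.8 and 86.8 ± 13.8, and Gata4, at 236 ± 36.4 and 278 ± 23.4 (SD, n = 3 per group), both with overlapping groups. Known targets of the microRNAs printed above also had overlapping groups. Med13 measured 433 ± 20.1 and 469 ± 71.7, and Purb, a repressor of myosin heavy chain genes, 391 ± 30.3 and 342 ± 25.9. Sox6 measured 149, 161 and 137 with placebo and 140, 183 and 130 with Lira. Tead1, a factor that binds the MCAT core, measured 1273 ± 74.0 and 1265 ± 79.7.

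Thyroid hormone raises Myh6 and lowers Myh7 in mouse heart, and genes of its supply and other targets were therefore listed. Of 11 genes 8 were tested, 2 higher and 6 lower, with a median of -0.12. The list mixes supply genes with targets, so no direction of hormone action is read from these counts or the median. The receptor Thra measured 359 ± 37.0 and 341 ± 27.3 (SD, n = 3 per group) with overlapping groups. Kcna5, a potassium channel that thyroid hormone raises, measured 588, 656 and 565 with placebo and 517, 529 and 427 with Lira. Its groups did not overlap and its difference was -0.29 on the log2 scale (unadjusted p = 0.026, adjusted p = 0.75, limma). The calcium pump Atp2a2, another such target, measured 25810, 28025 and 26489 with placebo and 28586, 34431 and 26786 with Lira. Its highest value was on Lira replicate 2, as for Myh6.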

How the data were processed

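Left ventricle RNA of 6 mice was hybridised as biotin-labelled target to 1 Affymetrix array per mouse. The authors deposited linear signal intensities per probe set, for which the submitters' processing notes name Affymetrix Expression Console. Its version and the summarisation method are not given in the sources used. The 2% trimmed mean was 150 on each array, as checked on the values. This leaves out the extreme probe sets, where the brightest myosins lie, and the arrays still differed there and in their medians.

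The members and lists were chosen with earlier results of these data known. The 64 control probe sets and 932 probe sets with several genes were left out of the tests. Single-gene probe sets (34945) were named from the platform table, and 99.4% matched RefSeq (GRCm38.p6) by gene ID. For each gene the brightest probe set on average was used. Values were taken as log2(signal + 16), which understates the change of dim genes. The 30% of genes with the lowest mean signal were left out, and tested genes had a mean of at least 23.7. limma 3.58.1 under R 4.3.3 was fitted over all 12736 genes, and separately over 24462 probe sets, using lmFit and eBayes (trend on), with two-sided p-values adjusted by Benjamini-Hochberg and a threshold of 0.05. The fit was also run on simulated data drawn from its own variance model, which cannot show whether these arrays meet that model. The Myh7 to Myh6 ratio was compared by an exact permutation test over arrays. P-values rest on the spread between these mice, and in limma each gene's variance was also drawn toward a trend over all genes. The limma SEs and intervals share this. For Myh7 the within-group SD was 0.27 on the log2 scale, and without the variance trend its unadjusted p was 0.019 in limma. The SEs of the ratios come from the spread of the ratios alone and were not drawn toward a trend.

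Named were all members, the 2 genes with the smallest p of each related list, the 2 brightest of each marker list, and the 3 genes nearest to Myh7 and to Myl7. Med13, Sox6, Purb, Tead1, Thra, Unc45b, Myom1, Mybpc3, Myl12b, Ankrd1, the skeletal heavy chains, Sln and Bmp10 were added after the values had been seen. The marker lists given only as sums held 11 skeletal muscle, 7 smooth muscle, 7 fibroblast, 7 endothelial, 8 leukocyte, 7 red cell and 6 fat cell genes. Of the red cell genes 3 had a probe set and entered the sum, and of the fat cell genes 4. The replicate numbers were checked for pairing by correlating deviations from the group means between same-numbered arrays, which gave -0.03, 0.08 and -0.09 over 12736 genes, so no pairing was assumed. Alternatives were other normalizations, pseudocounts and filters, other variance priors, array weights, a replicate block, other choices of probe set, and each array left out in turn.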

Additional observations from a re-analysis of the deposited data

How the results depend on the processing

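The count of 0 members past the adjusted threshold in limma held in 17 of 18 alternatives. Leaving out single arrays gave 0 to 1, the 1 being Myh7 without placebo replicate 1. The count of members at an unadjusted p under 0.05 was 1 in 17 of 18 and ranged from 1 to 2 with single arrays left out, the further gene being Myl2 without Lira replicate 3. Myh7 stayed lower in all 18, from -0.79 to -0.42, and its probe set tested among all probe sets did not pass in any of 16. With the replicate block its difference was -0.59 with an adjusted p of 0.18 in limma, and the Myh7 to Myh6 ratio differed by -0.71 with an exact sign-flip p of 0.25, the smallest that 3 pairs allow. The block changed no call, and as above the numbers gave no sign of pairing. The ratio was lower in all 12 alternatives, from -0.90 without placebo replicate 1 to -0.56 without placebo replicate 2, and -0.60 after quantile normalization. After quantile normalization Myh6 was at 0, and the 2 dimmer Myl3 probe sets turned to -0.0225 (the dimmest) and -0.0353. With single arrays left out the brightest Myl3 probe set, which stands for the gene, ranged from -0.0163 without Lira replicate 2 to 0.162, the dimmest from -0.0887 to 0.102 and the remaining one from -0.0813 to 0.110. The number of all genes past the threshold ranged from 0 to 10 in the alternatives, against 7 in the analysis reported, with 0 when no variance trend was used, 0 when probe sets of a gene were averaged, 1 without the filter, 2 among all probe sets and 1 to 9 with single arrays left out. For the 62 genes of the related lists, 0 passed in any of 18. The causes of these shifts were not tested. Myl7 was too near background to be read.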
